A study of Mus musculus and Rattus norvegicus with 32 samples.

Results

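Transcripts of 41 genes of the cell cycle and of DNA replication were followed in mouse and rat liver after trichloroethylene (TCE), to ask whether the dosing changed the transcripts that dividing liver cells make. The genes were chosen by name, and a probe set counted as a member where the platform annotation gave it 1 gene symbol and that symbol was on the list, with letter case ignored. The mouse array held 54 such probe sets for 38 of the genes, of 12422 probe sets and 8251 named genes in all. The rat array held 32 for 19 genes, of 8740 and 4736. Each of the 41 genes was on 1 array or the other, and 16 were on both. Bub1b, Ccnb1 and Tyms had no member probe set on the mouse array, and 22 genes, among them Mki67, Tk1, Rrm1, Rrm2, E2f1, Ccna2 and Ccnb2, had none on the rat array. A gene had several probe sets in 14 mouse and 8 rat cases.

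The study measured liver mRNA of male B6C3F1 mice and male SD rats with Affymetrix arrays and set out to compare the species. TCE is a chlorinated solvent whose acid metabolites activate the lipid sensor PPARα in rodent liver. It was given in corn oil by oral gavage at 1500 mg per kg, daily over 14 days in the repeated-dose groups and once in the single-dose groups, and the control animals received corn oil alone on the same schedule. Tissue was collected 18 h after the final dose, at 10 weeks of age after repeated doses and at 8 weeks after a single dose. There were 8 groups of 4 arrays, which are, within each species, repeated TCE, repeated oil, single TCE and single oil. The design text gives n = 4 for TCE and for oil without saying that each array held the RNA of 1 animal, so the p-values below measure the spread between these samples, which may in part be technical.

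A cell that divides passes in turn through G1, DNA synthesis (S), G2 and mitosis (M). D and E cyclins with their kinases release E2F factors at the end of G1, and E2F then turns on the genes for the MCM helicase, the replicative polymerases and the enzymes that supply deoxynucleotides. Genes of G2 and mitosis are turned on later, through promoters that carry CCAAT boxes and an element called CHR. Almost all hepatocytes of a healthy adult liver rest outside the cycle, and these transcripts are known to rise together when liver regrows after tissue loss, and for a few days when rodents are first given chemicals that activate PPARα.

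Mouse promoter sequence was available for 33 of the 41 genes, as 36 windows that run from 250 bases before to 50 bases after an annotated start (RefSeq, build GRCm38.p6). The E2F spelling TTTCCCGC or TTTGGCGC, searched on both strands, was found in 19.4% of these windows and in 1.56% of all 32851 windows of the same length. CCAAT was found in 69.4% of the member windows and 37.4% of all, the CHR spelling TTTGAA in 33.3% and 17.9%, and CHR together with CCAAT in 33.3% and 6.95%. The windows of 3 genes are printed 5′ to 3′ on the gene's own strand, with these spellings in capitals on whichever strand they lie. No spelling overlaps another in them. Nasp is shown because it passed the test described below in mouse liver after repeated doses, a result that depended on the processing. Mcm3 is shown because it holds both E2F spellings near its start. Ccnb2 has the repeated CCAAT and CHR spellings of a mitotic gene. Nasp lies on the minus strand at chr4:116627902-116628201, Mcm3 on the minus strand at chr1:20820263-20820562, and Ccnb2 on the minus strand at chr9:70421505-70421804.
Nasp: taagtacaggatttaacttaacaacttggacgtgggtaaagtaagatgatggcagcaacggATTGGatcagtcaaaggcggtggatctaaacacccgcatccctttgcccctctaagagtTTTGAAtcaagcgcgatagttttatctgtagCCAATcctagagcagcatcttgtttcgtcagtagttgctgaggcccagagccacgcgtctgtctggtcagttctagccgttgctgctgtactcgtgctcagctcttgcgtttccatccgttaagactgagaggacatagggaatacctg
Mcm3: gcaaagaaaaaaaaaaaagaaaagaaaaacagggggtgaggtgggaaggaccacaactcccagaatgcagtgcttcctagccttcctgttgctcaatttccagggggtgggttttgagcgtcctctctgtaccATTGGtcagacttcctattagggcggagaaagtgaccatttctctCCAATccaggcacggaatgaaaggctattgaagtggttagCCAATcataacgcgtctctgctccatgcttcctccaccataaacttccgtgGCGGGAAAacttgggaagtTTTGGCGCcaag
Ccnb2: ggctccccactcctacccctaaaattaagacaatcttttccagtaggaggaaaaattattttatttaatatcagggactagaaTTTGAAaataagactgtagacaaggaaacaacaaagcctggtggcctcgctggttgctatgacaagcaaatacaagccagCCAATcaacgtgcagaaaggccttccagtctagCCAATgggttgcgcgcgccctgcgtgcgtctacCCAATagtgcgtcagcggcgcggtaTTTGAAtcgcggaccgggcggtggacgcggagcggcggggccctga
The Nasp window held 2 CCAAT boxes and 1 CHR spelling and neither E2F spelling. Mcm3 had 3 CCAAT boxes and each E2F spelling once, and Ccnb2 had 3 CCAAT boxes and 2 CHR spellings. A match describes these letters and shows no bound site.

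The deposited values are ratios in which the 4 oil arrays of that species and schedule have a median of 1, so a value of 2 means 2 times their median and no signal level is known. For this reason the labelled tissue could not be checked by the level of hepatocyte markers. It is also unknown how bright any member was, and levels of different genes cannot be compared. Member probe sets were noisier than most: the median within-group SD of their log2 ratios was 0.56 in mouse and 0.58 in rat, against 0.42 and 0.46 over all probe sets, and 28 of 54 and 17 of 32 lay among the noisiest 40%. The median width of a member's 95% interval for the TCE change was 1.60 log2 units in mouse and 1.67 in rat. The number of arrays limits this precision. Gapdh control probes lie at the 3′ and 5′ ends of the transcript, and the log2 difference of their signals grows when transcripts are shortened. Here the difference was taken from the ratios, so it is relative to the matched oil group. It gives no absolute degree of shortening, and a limit of 1 is likewise relative. This relative value was more than 1 on 10 of the 32 arrays, 9 of them TCE arrays. These were 3 mouse repeated TCE arrays and 1 oil array, 3 mouse single TCE arrays, 2 rat repeated TCE arrays and 1 rat single TCE array. The mean TCE minus oil difference of this value was 0.78 in mouse after repeated doses (exact permutation test, two-sided, p = 0.371) and 1.54 after a single dose (exact p = 0.0571). In rat it was 1.08 (exact p = 0.0571) and 0.30 (exact p = 0.886), and no p under 0.0286 can come from 4 arrays against 4. The same value for actin control probes was higher by 0.72 on TCE than on oil arrays in mouse after repeated doses (exact p = 0.0571) and by 0.76 after a single dose (exact p = 0.0286), where every TCE array (0.12 to 1.03) lay above every oil array (-0.19 to 0.06). In rat the actin difference was 0.70 (exact p = 0.229) and 0.06 (exact p = 0.857). The part of these values in the members' results was not tested beyond the fits with the Gapdh value as a covariate and those without the arrays where it exceeded 1. In a whole liver sample, a change in the number of cells of a type and a change in the RNA per cell cannot be told apart.

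In mouse liver after repeated doses, the cell cycle and replication genes were split evenly between higher and lower, and 2 of their 54 probe sets passed the test. Cdc25c, the phosphatase that activates Cdk1 at the entry to mitosis, rose on 1 of its 2 probe sets, and Nasp, a chaperone that carries histones to replicating chromatin, fell. The test was limma on log2 ratios with Benjamini-Hochberg adjustment over all probe sets of the array at a threshold of 0.05, and it called 2.24% of all probe sets higher and 8.48% lower. The median change was -0.01 on the log2 scale over the members and -0.15 over all probe sets, and 27 of the 54 member changes were positive (50%), against 39.0% over all probe sets. The 95% interval lay below a doubling (a log2 change of 1) for 35 of the 54, and within 1 log2 unit of 0 on both sides for 21.

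Cdc25c probe set 102934_s_at read 5.76, 5.57, 3.64 and 4.79 on the TCE arrays, against 1.16, 0.696, 0.840 and 5.35 on the oil arrays. All 4 TCE arrays were high, but oil array 4 was as high as they were, so the groups overlapped. The change was 1.82 ± 0.53 (mean log2 change with its SE, n = 4 TCE and 4 oil arrays, adjusted p from limma = 0.0438). The suffix _s_at marks a probe set that can bind more than 1 transcript. The second probe set, 102935_at, read 1.49, 2.69, 3.77 and 1.41 with TCE, against 0.936, 3.41, 1.06 and 0.480 with oil, a change of 0.93 with a 95% interval of -0.61 to 2.46 (adjusted p = 0.437). The call of 102934_s_at was lost when any array other than oil 4 was left out (adjusted p = 0.0572 to 0.124), and without oil 4 the change was 2.47 (adjusted p = 0.00431). Of 7 other settings, the call was kept in 3, which were centring on array medians, log2(value + 1) and the Gapdh value as a covariate. Among the others, the adjusted p was 0.118 on the 8 arrays alone, 0.417 without the arrays of high Gapdh value and 0.429 with quantile normalization.

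Nasp (101108_at) read 0.184, 0.0587, 0.0745 and 0.625 on the TCE arrays, against 0.840, 0.982, 1.40 and 1.02 on the oil arrays. Every TCE array lay below every oil array, and the TCE values themselves spread over a wide range. The log2 change was -2.80 ± 0.85 (adjusted p = 0.0488). All TCE arrays lay below all oil arrays in 3 members (Nasp, Gmnn and Cks2) and above in 2 (Ccnb2 and Mcm3 160496_s_at), against 12.4% and 4.6% of all probe sets of the mouse array. The call was lost when any array other than TCE 4 was left out (adjusted p = 0.0673 to 0.136). It was also lost in each of the 7 other settings tried for it, of scaling, log offset, covariate and arrays included (adjusted p = 0.0638 to 0.413). No E2F spelling stood in its promoter window printed above.

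The transcripts most used as signs of dividing cells did not pass in mouse liver after repeated doses. Mki67, a protein of the chromosome surface in cycling cells, read 1.04, 3.59, 1.68 and 5.26 with TCE on probe set 99457_at, against 0.783, 1.06, 0.935 and 3.04 with oil. The change was 0.95 with an interval of -0.62 to 2.52 (adjusted p = 0.434). On its second probe set, 161931_r_at, Mki67 read 1.43, 1.64, 1.09 and 1.08 with TCE, against 1.06, 0.939, 1.16 and 0.591 with oil (0.51, interval -0.01 to 1.03, adjusted p = 0.195). The groups overlapped on both probe sets, with TCE array 4 and oil array 4 the highest of their groups on the first. Top2a, the topoisomerase that untangles sister chromosomes, read 1.11, 1.35, 1.001 and 0.913 with TCE, against 0.982, 1.09, 0.676 and 1.02 with oil. Its change was 0.22 with an interval of -0.41 to 0.85 (adjusted p = 0.667).

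Pcna, the sliding clamp of the replicative polymerases, was among the least variable members. It read 0.826, 0.983, 0.938 and 1.03 with TCE, against 1.10, 0.999, 0.855 and 1.001 with oil. The groups lay on top of each other, and the interval of -0.41 to 0.28 around a change of -0.06 was among the narrowest in the list (adjusted p = 0.833). Ccnd1, the cyclin that drives G1, read 1.20, 0.391, 0.406 and 0.622 with TCE on 94231_at, against 0.477, 0.879, 1.39 and 1.12 with oil (-0.62, interval -1.62 to 0.39, adjusted p = 0.429). On 94232_at it read 0.835, 0.727, 0.841 and 0.800 with TCE, against 0.672, 0.968, 1.03 and 1.04 with oil (-0.19, interval -0.78 to 0.39, adjusted p = 0.688). Both Ccnd1 probe sets had most TCE arrays under 1 and overlapped with oil. Cdk1, the kinase of mitotic entry, read 0.983, 0.638, 0.555 and 0.415 with TCE, against 3.57, 0.889, 0.975 and 1.02 with oil. Its change of -1.11 had an interval of -2.41 to 0.19 (adjusted p = 0.254), and oil array 1 stood far above the other oil arrays.

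By role, no group of members moved in 1 direction throughout after repeated doses. Of the 10 probe sets of origin licensing and the MCM helicase (Mcm2 to Mcm7, which unwind DNA, the loader Cdc6 and the licensing inhibitor Gmnn), 8 were positive and 2 negative. They ran from -0.44 for Gmnn to 0.79 for Mcm5 162102_r_at around a median of 0.21. Mcm3 160496_s_at had every TCE array (1.33, 1.22, 1.27 and 1.31) above every oil array (0.999, 0.925, 1.19 and 1.001), with a change of 0.32 (adjusted p = 0.221). Gmnn separated the other way, with every TCE array (0.808, 0.720, 0.802 and 0.796) below every oil array (0.915, 1.02, 1.38 and 0.977), and did not pass. In DNA synthesis and its chromatin (Pcna, the polymerase and primase genes Pola1 and Prim1, the ligase Lig1, the remodeller Hells, and Nasp), 6 of 7 probe sets were negative, with a median of -0.53.

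Nucleotide supply (the ribonucleotide reductase subunits Rrm1 and Rrm2 and the thymidine kinase Tk1) had 2 positive and 3 negative probe sets. Tk1 161150_at had the second largest positive change, with 4.67, 2.72, 1.02 and 7.82 on the TCE arrays, against 1.12, 0.878, 1.14 and 0.859 on the oil arrays (1.68, interval 0.21 to 3.15, adjusted p = 0.129). The other Tk1 probe set, 96081_at, read 1.31, 1.17, 0.748 and 0.820 with TCE, against 1.15, 0.802, 1.09 and 0.912 with oil, a change of 0.01. The pair therefore gave different answers for 1 gene. Among genes of S entry, E2f1 161427_f_at read 0.670, 0.507, 0.986 and 0.222 with TCE, against 1.15, 0.850, 1.46 and 0.658 with oil (-0.91, interval -1.77 to -0.06, adjusted p = 0.155). Its second probe set, 102963_at, had an interval that reached from below to above 0. G2 and mitotic entry had 4 positive and 3 negative of 7 probe sets, and mitosis itself (the spindle kinases Aurka, Aurkb, Plk1 and Bub1, the motors Kif11 and Kif20a and their partners) 9 and 9 of 18, none past the threshold. Of the 14 genes with several probe sets, 8 had all of theirs on 1 side of 0 and 6 had them on both sides.

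**Figure D1:**
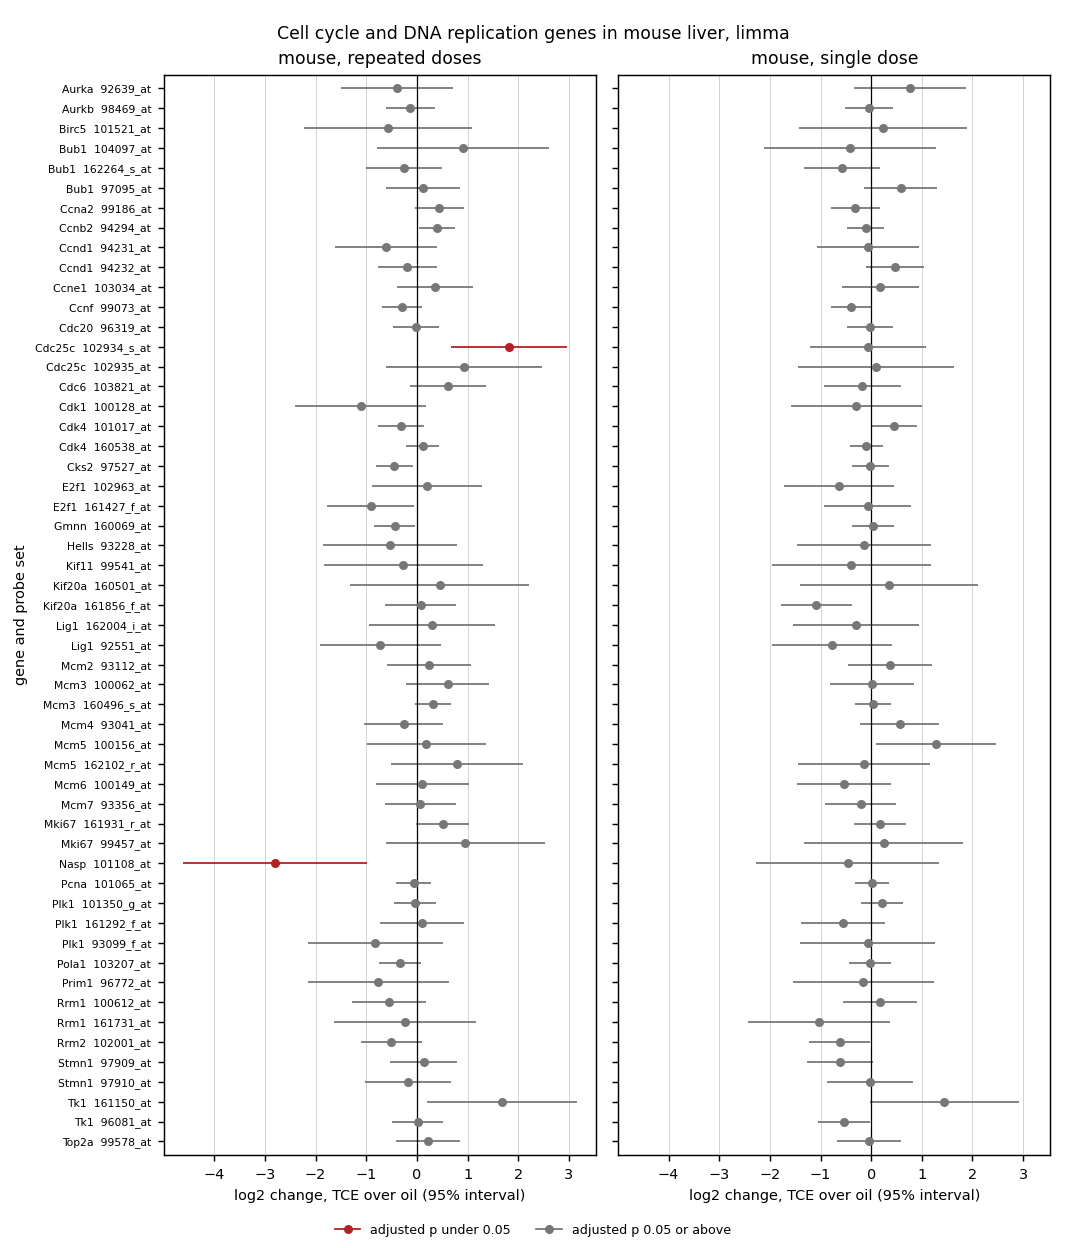
Log2 change of each of the 54 mouse member probe sets, TCE over oil, after repeated doses (left) and a single dose (right). Points are limma estimates, bars their 95% intervals, and red marks an adjusted p under 0.05, which Cdc25c 102934_s_at and Nasp have after repeated doses and none has after a single dose.

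Other genes of the cycle in mouse liver after repeated doses passed mainly as falls, in lists of genes that were not members, as did the whole array (8.48% lower and 2.24% higher). Calls of genes outside the member list come from the main limma fit alone. They were not followed singly under the other settings, and in several of those far fewer probe sets of the array passed, as the last section gives. Of 27 probe sets of kinase inhibitors and checkpoint genes 6 fell and 0 rose, with a median of -0.44. The inhibitor Cdkn1b, which holds cells in G1, fell on both its probe sets, by 1.82 and 2.59 log2 units (limma, adjusted p = 0.0248 and 0.0355). The checkpoint clamp gene Rad1 fell by 1.87, the inhibitor Cdkn2d by 1.16, the DNA damage kinase Atm by 0.86 and the clamp loader Rad17 by 0.63. Of 31 other cyclin, kinase, RB and E2F probe sets 3 fell and 0 rose: Tfdp1, the partner of E2F, fell by 0.97 on 1 of its 3 probe sets, Ccni by 0.85 on 1 of 3 and the pocket protein Rbl2 by 0.64. Of 53 other replication probe sets 2 rose and 2 fell. Cdt1, which loads the MCM helicase, rose by 1.30 on 1 of its 2 probe sets and the recombination factor Rad51ap1 by 0.76, while the initiation factor Mcm10 fell by 0.93 and the single-strand binding subunit Rpa3 by 0.59. Of 50 other mitosis probe sets 5 fell and 0 rose, led by Tacc3, a spindle pole protein, which fell by 2.64. Cks1b fell by 1.10, the lamin Lmnb1 by 1.05, the histone variant H2az1 by 0.77 and Bub3, of the spindle checkpoint, by 0.65 on 1 of 2 probe sets. Of 21 growth signal probe sets 1 rose and 3 fell: Egfr, a receptor for hepatocyte mitogens, fell by 1.47 and 1.88 on 2 of its 3 probe sets, Igf1 fell by 0.49 on 1 of 2 and Igf2 rose by 1.57 on 1 of 2.

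Markers of the cell types of liver passed in few cases on the same mouse arrays, while the means of the hepatocyte and of the endothelial markers were lower on every TCE array than on every oil array. Macrophage markers had 1 of 15 probe sets higher (Lyz2) and 3 lower (C1qa and both probe sets of Csf1r). Their mean log2 ratio was -0.33 to -0.11 on the repeated TCE arrays and -0.57 to 0.12 on the oil arrays. Lymphocyte markers had 1 of 14 lower (Ptprc), with means of -0.25 to -0.06 on TCE arrays and -0.13 to 0.04 on oil arrays, and erythroid markers 1 of 11 lower (Alas2), with means of -0.36 to 0.07 and -0.69 to 0.17. Hepatocyte markers had 3 of 11 lower (Apob, Fgb and Tat), with means of -0.81 to -0.52 on TCE arrays and -0.15 to 0.07 on oil arrays. Endothelial markers had 1 of 12 lower (Tek), with means of -0.55 to -0.25 and -0.11 to 0.09, and stellate cell markers had 1 of 12 higher and 1 lower. None of the neutrophil, cholangiocyte and exocrine pancreas probe sets passed. The part of these markers in the members' results was not tested.

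After a single dose, 0 of the 54 mouse member probe sets passed the limma test, which called 4.16% of all probe sets higher and 4.14% lower. At an unadjusted p under 0.05, 1 of the 54 members was higher and 3 were lower, against 1247 and 1764 of all 12422 probe sets. The median member change was -0.07, against -0.09 over all probe sets, and 20 of the 54 were positive (37.0%, against 42.6% over all). For 34 of them the interval lay below a doubling. Ccnf was the only member whose TCE arrays (0.822, 0.739, 0.754 and 0.724) all lay on 1 side of the oil arrays (1.01, 0.884, 0.986 and 1.11), with a change of -0.39 (adjusted p = 0.212). Over all probe sets, 9.62% had all TCE arrays below the oil arrays and 7.96% had them above.

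The proliferation markers overlapped between TCE and oil arrays after a single dose in mouse. Mki67 99457_at read 0.567, 1.25, 0.419 and 2.99 with TCE, against 0.258, 1.25, 0.748 and 1.87 with oil (0.24, interval -1.33 to 1.82, adjusted p = 0.882). Mki67 161931_r_at read 0.885, 0.937, 1.18 and 1.18 with TCE, against 1.06, 0.627, 1.14 and 0.943 with oil (0.17, interval -0.35 to 0.69, adjusted p = 0.719). The spread of the first probe set was large in both groups and that of the second small, and both overlapped. Top2a read 0.761, 0.971, 1.27 and 0.580 with TCE, against 1.24, 1.07, 0.497 and 0.925 with oil (-0.04, interval -0.67 to 0.59). Pcna read 1.13, 0.858, 1.27 and 0.966 with TCE, against 0.898, 1.03, 0.968 and 1.26 with oil (0.02, interval -0.32 to 0.36). For Pcna a doubling or a halving therefore lay outside the interval on both schedules in mouse. Cdk1 read 0.573, 0.301, 0.942 and 1.15 with TCE, against 0.365, 1.76, 0.412 and 1.59 with oil (-0.29, interval -1.59 to 1.01). Ccnd1 94232_at read 1.84, 0.968, 1.80 and 1.60 with TCE, against 0.962, 1.04, 0.743 and 1.88 with oil (0.47, interval -0.11 to 1.05, adjusted p = 0.316). Ccnd1 94231_at read 0.857, 0.620, 0.943 and 0.765 with TCE, against 0.315, 1.01, 1.47 and 0.986 with oil (-0.07, interval -1.07 to 0.94). The groups of these probe sets overlapped.

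The largest single-dose changes in mouse did not pass either. Kif20a, a motor of the dividing cell's midzone, had the smallest adjusted p in the list on 161856_f_at. It read 0.311, 0.417, 0.389 and 1.04 with TCE, against 0.989, 1.01, 1.24 and 0.852 with oil (-1.08, interval -1.79 to -0.38, adjusted p = 0.0575). TCE arrays 1 to 3 were below all oil arrays and TCE 4 was not, and without TCE 4 the adjusted p was 0.00919. Tk1 161150_at had the largest positive change, with 2.96, 2.01, 2.97 and 1.58 on TCE arrays, against 1.64, 0.359, 2.85 and 0.304 on oil arrays (1.44, adjusted p = 0.215). Mcm5 100156_at read 3.92, 1.12, 2.36 and 2.70 with TCE, against 0.383, 0.761, 1.24 and 2.22 with oil (1.28, adjusted p = 0.169). Both overlapped with oil and had wide oil spreads. The second probe sets of these 3 genes went the other way. Tk1 96081_at read 0.610, 0.694, 0.703 and 0.658 with TCE, against 0.960, 0.629, 1.40 and 1.04 with oil. Geometric means with TCE and oil were 0.917 and 0.721 for Kif20a 160501_at and 0.909 and 1.003 for Mcm5 162102_r_at. Of the 14 genes with several probe sets, 5 had all of theirs on 1 side of 0 and 9 on both sides. Aurka, a kinase of the spindle poles, read 2.42, 0.546, 1.16 and 3.38 with TCE, against 0.436, 1.46, 0.780 and 1.22 with oil (0.77, adjusted p = 0.396). Rrm1 161731_at read 0.611, 0.890, 0.622 and 0.439 with TCE, against 0.661, 3.88, 1.10 and 0.897 with oil (-1.02, adjusted p = 0.371). Lig1 92551_at, which joins replicated fragments, read 0.328, 0.776, 0.342 and 0.793 with TCE, against 1.20, 0.462, 1.34 and 0.801 with oil (-0.78, adjusted p = 0.431).

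By role after a single dose, 6 of 10 licensing and MCM probe sets were positive with a median of 0.02, and 6 of 7 DNA synthesis probe sets were negative with a median of -0.15. G2 and mitotic entry had 1 positive and 6 negative of 7, from -0.39 to 0.09, and mitosis 7 and 11 of 18. The sets of E2F and CHR spellings likewise showed no common direction. The 9 probe sets of the 7 genes with an E2F spelling had a median of 0.19 after repeated doses (7 positive) and -0.14 after a single dose (3 positive), and 0 passed. The 14 probe sets of the 11 measured genes with a CHR spelling had medians of -0.03 and -0.06, and only Nasp after repeated doses passed among them.

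**Figure D2:**
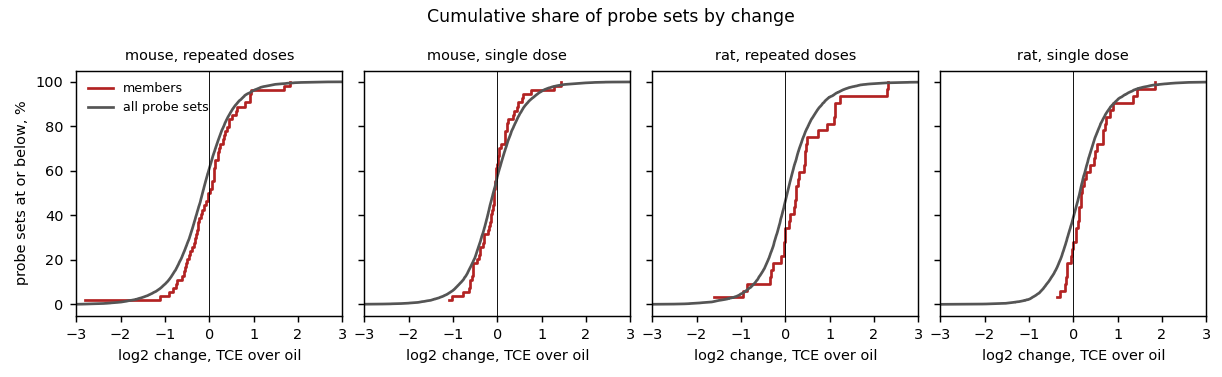
Share of probe sets (vertical axis, percent) with a log2 TCE change at or below the value on the horizontal axis, for the members (red) and all probe sets (grey), in each comparison. After repeated doses the member median is the higher in both species, with -0.01 against -0.15 in mouse and 0.24 against 0.04 in rat. After a single dose the medians are -0.07 and -0.09 in mouse and 0.18 and 0.14 in rat.

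Among other cycle genes in mouse after a single dose, calls went in both directions, as over the whole array (4.16% higher and 4.14% lower). These calls too come from the main fit alone and were not followed singly under the other settings. The kinase inhibitor gene Cdkn1a, a p53 target that halts the cycle, rose by 2.17 on 1 of its 2 probe sets (limma, adjusted p = 0.0437). Cdkn1b fell by 1.76 on 1 of 2 (adjusted p = 0.0325), which made 1 rise and 1 fall among 27 probe sets. Wee1, the kinase that restrains Cdk1, rose by 1.57, the single call among 31 other cyclin, kinase, RB and E2F probe sets. Cdt1 rose by 0.58, the single call among 53 other replication probe sets, on the probe set other than that called after repeated doses. In the mitosis list Ran, of nuclear transport and spindle assembly, rose by 1.01, Anapc1, a subunit of the anaphase ligase, by 0.62 on 1 of 2 probe sets, and H2az1 fell by 0.93, among 50 probe sets. Of 21 growth signal probe sets, Tgfb1, which restrains hepatocyte growth, rose by 2.42, Egfr fell by 0.82 and 1.12 on 2 of 3 and Igf1 by 0.57 on 1 of 2. On the same arrays 3 of 11 hepatocyte marker probe sets fell, with means of -0.65 to -0.43 on TCE arrays and -0.13 to 0.04 on oil arrays. Stellate markers had 1 of 12 lower, with means of -1.27 to -0.56 and -0.40 to 0.50, endothelial markers had 1 of 12 lower, with means of -0.27 to -0.20 on TCE arrays and -0.12 to 0.13 on oil arrays, erythroid markers had 1 of 11 lower, and no macrophage, lymphocyte, neutrophil, cholangiocyte or exocrine pancreas probe set passed. The mean of the exocrine pancreas markers was -1.56 to 3.91 on TCE arrays and -0.83 to 2.88 on oil arrays. The part of these markers was not tested.

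The TCE change after repeated doses differed from that after a single dose for 0.877% of mouse probe sets and for 0 of the 54 members. At an unadjusted p under 0.05, 3 of the 54 members were higher after repeated doses and 1 was lower, against 831 and 1507 of all 12422 probe sets. The Cdc25c 102934_s_at change was 1.88 log2 units higher after repeated doses, and 102934_s_at read 0.435, 1.11, 1.15 and 1.36 on single-dose TCE arrays (difference adjusted p = 0.194). Cdk4, the G1 kinase, was 0.77 lower on 101017_at (adjusted p = 0.179), Kif20a 161856_f_at 1.16 higher (adjusted p = 0.196) and Ccna2, the cyclin of S and G2, 0.75 higher (adjusted p = 0.214). The Nasp difference of -2.33 had an interval of -4.89 to 0.23 (adjusted p = 0.316). Nasp read 0.711, 0.314, 0.842 and 0.188 on the single-dose TCE arrays, against 1.64, 1.65, 0.363 and 0.131 on their oil arrays, a spread as wide as the change after repeated doses.

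**Figure D3:**
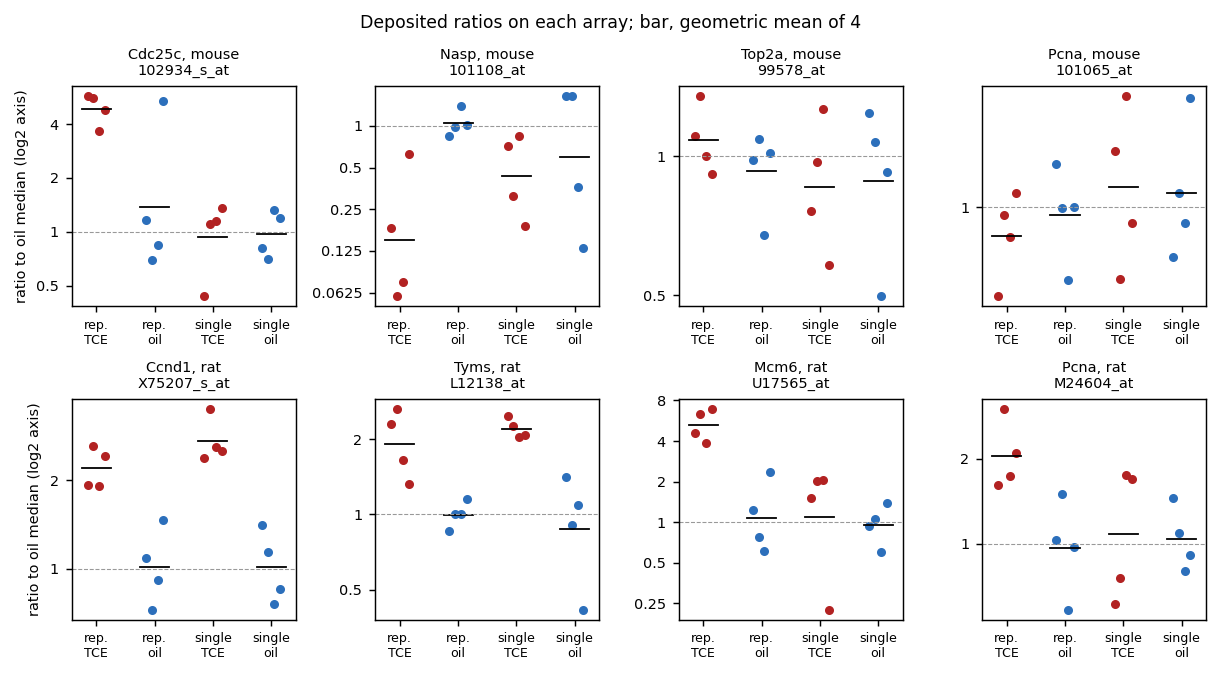
Deposited ratios (log2 axis) on every array for 8 probe sets, with repeated TCE, repeated oil, single TCE and single oil from left to right; each point is 1 array, horizontal bars are geometric means of 4, and the dashed line is the oil median of 1. Rat Ccnd1 X75207_s_at and Tyms lie above oil in both schedules, rat Mcm6 U17565_at lies above oil after repeated doses, and mouse Top2a and Pcna overlap with oil. For each gene the probe set with the smallest adjusted p over the TCE comparisons is drawn. After repeated doses the other probe sets of mouse Cdc25c and of rat Ccnd1, Mcm6 and Pcna had smaller changes.

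In rat liver after repeated doses, 1 of 32 member probe sets passed: Ccnd1 rose on 1 of its 5 probe sets. The limma test called 2.16% of all rat probe sets higher and 0.652% lower. The median member change was 0.24, against 0.04 over all probe sets, and 21 of the 32 were positive (65.6%, against 53.6% over all). In 6 members all TCE arrays lay above all oil arrays and in 2 below, against 7.52% and 4.78% of all probe sets. The replication genes Mcm6, Pcna, Prim1 and Tyms each had a probe set on which every TCE array lay above every oil array, without passing. The mitotic genes Kif11 and Ccnb1 each had a probe set with every TCE array below every oil array, also without passing.

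Ccnd1 X75207_s_at read 1.94, 2.62, 1.92 and 2.43 on the repeated TCE arrays, against 1.09, 0.726, 0.913 and 1.47 on the oil arrays. The groups did not overlap, and the change was 1.12 ± 0.25 (log2 change ± SE, n = 4 and 4, adjusted p = 0.0261). The call was lost without oil 1, oil 2, oil 3, TCE 2 or TCE 4 (adjusted p = 0.0540 to 0.0846). Of 8 other settings it was kept in 3, which were centring, log2(value + 1) and leaving out the noisiest 40% of probe sets. Among the others, the adjusted p was 0.0809 on the 8 arrays alone, 0.105 with the Gapdh value as a covariate, 0.111 without the arrays where that value exceeded 1 and 0.571 with quantile normalization. The other 4 Ccnd1 probe sets did not follow it. D14014_at read 1.55, 1.95, 0.849 and 1.08 with TCE, against 1.08, 0.922, 0.740 and 1.92 with oil (0.24, interval -0.62 to 1.11). D14014_g_at read 0.999, 1.56, 1.93 and 1.51 with TCE, against 0.968, 1.03, 0.806 and 1.73 with oil (0.43, interval -0.16 to 1.01). Both overlapped with oil. On rc_AI231257_at the ratios were 1.91, 1.03, 2.08 and 0.390 with TCE, against 1.11, 0.854, 0.920 and 1.08 with oil (0.19, interval -0.73 to 1.11). On rc_AA957218_at, the least variable, they were 1.07, 1.09, 1.06 and 0.664 with TCE, against 1.22, 0.906, 1.09 and 0.894 with oil (-0.10, interval -0.55 to 0.35). The upper bounds of the first 3 of these reached just past a doubling, and that of rc_AA957218_at stayed below it.

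The MCM helicase subunit Mcm6 had the highest ratios of the rat members after repeated doses. On U17565_at it read 4.55, 6.37, 3.89 and 6.91 with TCE, against 1.23, 0.773, 0.611 and 2.35 with oil (2.29, interval 0.98 to 3.60, adjusted p = 0.0594). On rc_AI639082_s_at it read 1.76, 3.42, 2.84 and 2.20 with TCE, against 1.43, 1.01, 0.854 and 0.988 with oil (1.24, interval 0.49 to 1.98, adjusted p = 0.0678). Both had every TCE array above every oil array. On U17565_g_at it read 2.02, 4.19, 1.93 and 2.26 with TCE, against 2.01, 0.827, 0.918 and 1.08 with oil, where oil array 1 was as high as TCE array 1 (1.12, interval 0.42 to 1.82, adjusted p = 0.0746). None of the 3 passed over all probe sets. U17565_at passed with log2(value + 1) (adjusted p = 0.00777), with the 8 arrays alone (0.0489), with the Gapdh covariate (0.0472) and without the arrays of high Gapdh value (0.0443). Mcm5 (0.74, interval -0.04 to 1.52) and Mcm7 (0.10, interval -0.41 to 0.62) were the other measured subunits, so all 5 licensing and MCM probe sets were positive, with a median of 1.12.

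Other replication genes in rat were positive with wide intervals after repeated doses. Pcna M24604_at read 1.61, 3.01, 1.74 and 2.11 with TCE, against 1.03, 1.50, 0.582 and 0.970 with oil (1.09, interval 0.29 to 1.89, adjusted p = 0.125), and every TCE array was above oil. Pcna M24604_g_at read 0.869, 1.55, 0.994 and 1.23 with TCE, against 0.947, 1.17, 0.741 and 1.05 with oil (0.23, interval -0.36 to 0.82). The pair disagreed on the size of the change. Prim1, the primase that starts each new DNA strand, had on U67994_at 1.87, 1.66, 1.67 and 1.66 with TCE, against 1.15, 1.02, 0.983 and 0.012 with oil. Oil array 4 was near 0, and the change of 2.32 (interval -0.02 to 4.66, adjusted p = 0.268) was 0.71 without it (adjusted p = 0.385). The second Prim1 probe set, AJ011608_at, changed by 0.21 (interval -0.80 to 1.23). Tyms, the enzyme that makes thymidylate for DNA, read 2.29, 2.64, 1.65 and 1.32 with TCE, against 0.855, 1.0, 1.0 and 1.15 with oil (0.94, interval 0.26 to 1.61, adjusted p = 0.116), with all TCE arrays above oil.

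Genes of mitosis in rat gave changes in both directions, and none passed. Of 10 mitosis probe sets after repeated doses 3 were positive and 7 negative, with a median of -0.02. Kif11, the motor that separates spindle poles, read 0.277, 0.262, 0.390 and 0.455 with TCE, against 1.17, 1.64, 0.693 and 0.826 with oil. All TCE arrays were below all oil arrays, and the change of -1.61 had an interval of -2.52 to -0.69 (adjusted p = 0.0577, and 0.0487 after centring on array medians). Top2a read 1.24, 1.13, 0.468 and 1.16 with TCE on D14045_s_at, against 0.750, 1.11, 2.64 and 0.888 with oil (-0.34, interval -1.64 to 0.96). Top2a read 2.30, 2.32, 0.544 and 0.664 with TCE on rc_AA899854_at, against 1.93, 1.08, 0.780 and 0.915 with oil (0.09, interval -0.91 to 1.09), and on Z19552cds_at 1.79, 1.50, 0.376 and 0.803 with TCE, against 0.668, 1.16, 0.838 and 1.31 with oil (-0.02, interval -1.24 to 1.20). No Top2a probe set separated the groups. Cdk1 read 1.83, 2.54, 0.541 and 0.952 with TCE, against 0.946, 1.05, 0.534 and 1.34 with oil (0.44, interval -0.60 to 1.47). Ccnb1, the mitotic cyclin, read 0.658, 0.854, 0.738 and 0.226 with TCE on X64589_at, against 0.915, 0.935, 1.14 and 1.06 with oil (-0.87, adjusted p = 0.318), while its other probe set changed by 0.45. Cdc20, which activates the anaphase ligase, read 1.34, 1.71, 0.135 and 0.610 with TCE, against 2.92, 0.957, 1.04 and 0.921 with oil (-0.96, adjusted p = 0.510).

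**Figure D4:**
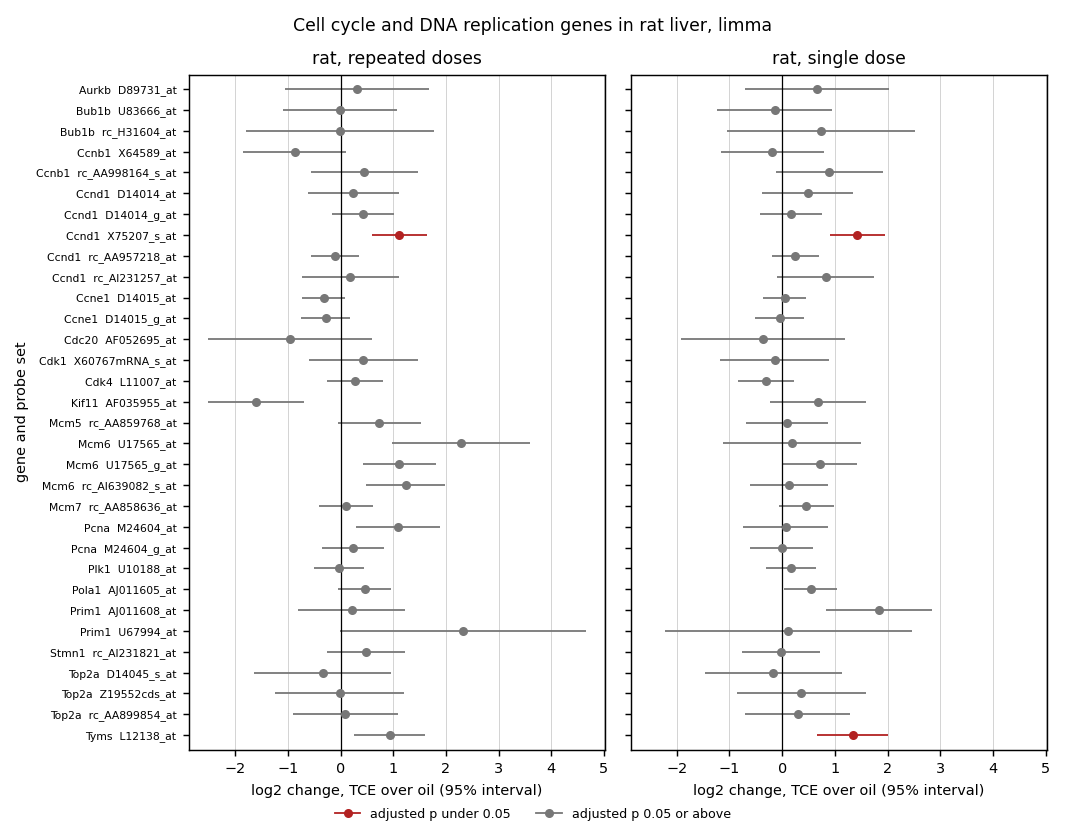
Log2 change of each of the 32 rat member probe sets, TCE over oil, after repeated doses (left) and a single dose (right), with limma estimates as points and 95% intervals as bars. Red marks an adjusted p under 0.05: Ccnd1 X75207_s_at in both panels and Tyms after a single dose.

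Other cycle genes that passed in rat after repeated doses numbered 3 of 21, 1 of 15 and 1 of 19 probe sets in 3 lists, beside 2.16% higher and 0.652% lower over the whole array. They passed in the main fit and were not followed singly under the other settings. The D-type cyclin Ccnd2 rose by 1.17 on 1 of its 2 probe sets and Ccnc, a cyclin of the transcription machinery, by 1.76, while Cdk5, a kinase known for its work in neurons, fell by 2.62, among 21 probe sets of cyclins, kinases, RB and E2F. Mdm2, which restrains p53 and is its target, rose by 0.85 on 1 of 4 probe sets, among 15 of inhibitors and checkpoints, and the condensin subunit Smc4 by 1.36, among 19 of mitosis. Of 23 other replication probe sets and 31 of growth signals 0 passed. Macrophage markers had 0 of 10 probe sets past the threshold, with means of -1.15 to -0.31 on TCE arrays and -0.34 to 0.30 on oil arrays. Endothelial markers had 1 of 5 lower (Pecam1), hepatocyte markers 1 of 29 lower (Serpina1), and lymphocyte markers 0 of 11 passing, with means of -0.45 to -0.01 on TCE arrays and -0.79 to 0.65 on oil arrays. No erythroid, neutrophil, stellate, cholangiocyte or exocrine pancreas probe set passed, and the part of these markers was not tested.

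After a single dose in rat, 2 of 32 member probe sets rose, the same Ccnd1 probe set and Tyms, and 0 fell, where limma called 1.21% of all probe sets higher and 0.503% lower. The median member change was 0.18 and that of all probe sets 0.14, with 23 of the 32 positive (71.9%, against 60.8% over all). In 3 members all TCE arrays lay above all oil arrays, and in 0 below, against 8.79% and 3.72% of all probe sets. Ccnd1 X75207_s_at read 2.38, 3.50, 2.61 and 2.53 on the TCE arrays, against 1.41, 1.14, 0.760 and 0.857 on the oil arrays. The TCE arrays were all above 2 and the oil arrays all below, and the change was 1.43 ± 0.25 (adjusted p = 0.0176). The call was lost without oil 4 (adjusted p = 0.0521) and kept when any other 1 of the 8 arrays was left out. Of 8 other settings it was kept in 5. Among the others, the adjusted p was 0.0591 when the arrays of high Gapdh value of both rat schedules were left out of the fit and 0.461 with quantile normalization. On rc_AI231257_at Ccnd1 read 1.74, 2.16, 1.48 and 1.60 with TCE, against 1.23, 0.634, 0.775 and 1.49 with oil (0.83, interval -0.09 to 1.74, adjusted p = 0.308). On D14014_at it read 0.668, 2.39, 1.68 and 1.79 with TCE, against 1.0, 1.60, 0.774 and 1.0 with oil (0.49, interval -0.38 to 1.35). The TCE arrays of both were mostly high but overlapped with oil. D14014_g_at read 0.819, 1.10, 0.973 and 1.51 with TCE, against 1.15, 0.955, 0.725 and 1.04 with oil (0.17, interval -0.42 to 0.75), and rc_AA957218_at read 1.29, 1.35, 1.01 and 0.956 with TCE, against 1.04, 0.742, 1.14 and 0.962 with oil (0.25, interval -0.20 to 0.70). All 5 Ccnd1 probe sets were thus positive after a single dose, 1 of them past the threshold.

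Tyms read 2.47, 2.26, 2.05 and 2.08 on the single-dose TCE arrays, against 1.42, 0.909, 1.09 and 0.416 on the oil arrays. The TCE arrays were close together and all above oil, with a change of 1.34 ± 0.32 (adjusted p = 0.0480). The call was lost when any array other than oil 1 was left out (adjusted p = 0.0537 to 0.126). Of 8 other settings it was kept in 3, which were log2(value + 1), leaving out the noisiest 40% of probe sets and the Gapdh covariate. Among the others, the adjusted p was 0.0584 after centring, 0.0937 without the arrays of high Gapdh value, 0.112 on the 8 arrays alone and 0.414 with quantile normalization. Prim1 AJ011608_at read 2.73, 5.13, 2.45 and 2.01 with TCE, against 0.347, 1.30, 0.751 and 1.25 with oil (1.84, interval 0.82 to 2.85, adjusted p = 0.0638). Its groups did not overlap either, while Prim1 U67994_at changed by 0.12 (interval -2.22 to 2.46). The largest negative changes in rat after a single dose were small. Cdc20 read 1.29, 0.910, 1.45 and 0.232 with TCE, against 0.951, 0.756, 1.46 and 1.05 with oil (-0.37, adjusted p = 0.814). Cdk4 read 0.951, 0.617, 0.936 and 1.11 with TCE, against 0.974, 1.54, 0.923 and 1.03 with oil (-0.31, adjusted p = 0.527). Ccnb1 X64589_at read 1.12, 0.367, 1.37 and 1.30 with TCE, against 0.744, 0.822, 1.70 and 1.18 with oil (-0.19, adjusted p = 0.852). Each of these overlapped with oil, and a single TCE array lay low in each.

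Proliferation markers in rat after a single dose did not separate the TCE arrays from the oil arrays. Pcna M24604_at read 0.612, 0.757, 1.76 and 1.69 with TCE, against 1.45, 1.09, 0.801 and 0.909 with oil (0.06, interval -0.74 to 0.87). Pcna M24604_g_at read 0.680, 0.712, 1.47 and 1.35 with TCE, against 1.16, 1.11, 0.885 and 0.855 with oil (-0.01, interval -0.60 to 0.58). TCE arrays 1 and 2 were below and 3 and 4 above the oil arrays on both. Top2a read 0.962, 1.25, 0.967 and 0.848 with TCE on D14045_s_at, against 0.990, 1.01, 4.48 and 0.349 with oil (-0.17, interval -1.46 to 1.13). It read 0.495, 1.62, 2.84 and 1.05 with TCE on Z19552cds_at, against 0.468, 1.08, 1.87 and 0.921 with oil (0.37, interval -0.86 to 1.59). On rc_AA899854_at it read 1.35, 1.18, 1.95 and 0.702 with TCE, against 0.936, 1.06, 1.09 and 0.884 with oil (0.29, interval -0.71 to 1.29). All 3 Top2a probe sets overlapped between the groups, and oil array 3 was the highest of the first. Cdk1 read 1.17, 0.813, 1.58 and 0.388 with TCE, against 1.05, 0.754, 1.16 and 0.948 with oil (-0.14, interval -1.18 to 0.89). Mcm6 changed by 0.19 on U17565_at, where TCE array 4 read 0.224 and the others 1.51, 2.02 and 2.07, and by 0.71 on U17565_g_at (interval 0.02 to 1.41, adjusted p = 0.249).

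Outside the list, Mdm2 rose by 1.34 and 0.97 on 2 of its 4 probe sets in rat after a single dose, among 15 inhibitor and checkpoint probe sets that all had positive changes with a median of 0.52. Over the whole array 1.21% of probe sets were called higher and 60.8% had positive changes. Calls outside the list were again those of the main fit alone, not followed singly under the other settings. Ccnd2 rose by 1.18 on 1 of its 2 probe sets, the single call among 21 cyclin, kinase, RB and E2F probe sets, and Smc4 by 1.14, the single call among 19 of mitosis. Of 23 other replication and 31 growth signal probe sets 0 passed. Hepatocyte markers had 3 of 29 probe sets higher, all of Apob, by 6.50, 4.59 and 2.56 on 3 of its 5 probe sets. Of the 29, 12 had positive and 17 negative changes, with a median of -0.16. The mean of the 29 was 0.18 to 0.55 on TCE arrays and -0.22 to 0.21 on oil arrays. Stellate markers had 1 of 18 lower (Tagln). Macrophage markers had 0 of 10 passing, with means of -1.46 to 0.06 on TCE arrays and -0.35 to 0.32 on oil arrays. Exocrine pancreas markers, of which 0 of 13 passed, had means of -0.09 to 0.48 on the single TCE arrays, and a mean of 5.22 on 1 oil array. The part of these markers was not tested.

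The repeated and single dose changes in rat differed for 0% of probe sets and so for none of the members, and 353 probe sets were higher and 465 lower at an unadjusted p under 0.05. Among members, 2 were higher after repeated doses and 2 lower at that level. The Kif11 change was 2.28 log2 units lower after repeated doses (interval -3.57 to -0.99, adjusted p = 0.384): it read 1.62, 2.98, 2.83 and 0.814 on single-dose TCE arrays, against 0.794, 2.16, 0.914 and 1.09 on their oil arrays. The Mcm6 change was 2.10 higher on U17565_at (adjusted p = 0.488) and 1.11 higher on rc_AI639082_s_at (adjusted p = 0.510), and that of Prim1 AJ011608_at 1.63 lower (adjusted p = 0.488). The Ccnd1 probe set called in both schedules, and Tyms, had differences of their 2 changes that did not pass. For Tyms the difference was -0.40 with an interval of -1.35 to 0.55.

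The TCE change in mouse differed from that in rat for 0 of the 16 shared member genes on either schedule, where 10.5% of 3055 shared genes differed after repeated doses and 4.22% after a single dose. Here each gene was represented by its least variable probe set, by the SD within groups. After repeated doses the median mouse minus rat difference was -0.23 over the members and -0.23 over all shared genes, with 4 of 16 members positive. After a single dose it was -0.24 and -0.19, with 7 of 16 positive. The smallest p belonged to Pola1, the catalytic subunit of the polymerase that starts DNA strands, after repeated doses. Its change was -0.34 in mouse and 0.46 in rat, a difference of -0.80 (interval -1.41 to -0.19, adjusted p = 0.0820). It was the only 1 of the 16 members to pass an unadjusted p of 0.05 after repeated doses, against 809 of the 3055 shared genes. After a single dose 2 members did, against 645 of the shared genes. These were Prim1 with -0.15 in mouse and 1.84 in rat (difference -1.99, adjusted p = 0.161) and Mcm6 with -0.54 and 0.71 (difference -1.26, adjusted p = 0.183). The Cdk1 change was -1.11 in mouse and 0.44 in rat after repeated doses (difference -1.55, interval -3.18 to 0.08). For Pcna, represented in rat by M24604_g_at, the difference was -0.30 after repeated doses (interval -0.94 to 0.35). It was 0.03 after a single dose (interval -0.62 to 0.67). On these probe sets a difference of 1 log2 unit lay outside both intervals. The other rat Pcna probe set, M24604_at, changed by 1.09 after repeated doses and by 0.06 after a single dose and was not used here. Ccnd1 was represented here by rc_AA957218_at in rat, not by the probe set that rose, and its differences of -0.09 and 0.22 had intervals within 1 log2 unit of 0.

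**Figure D5:**
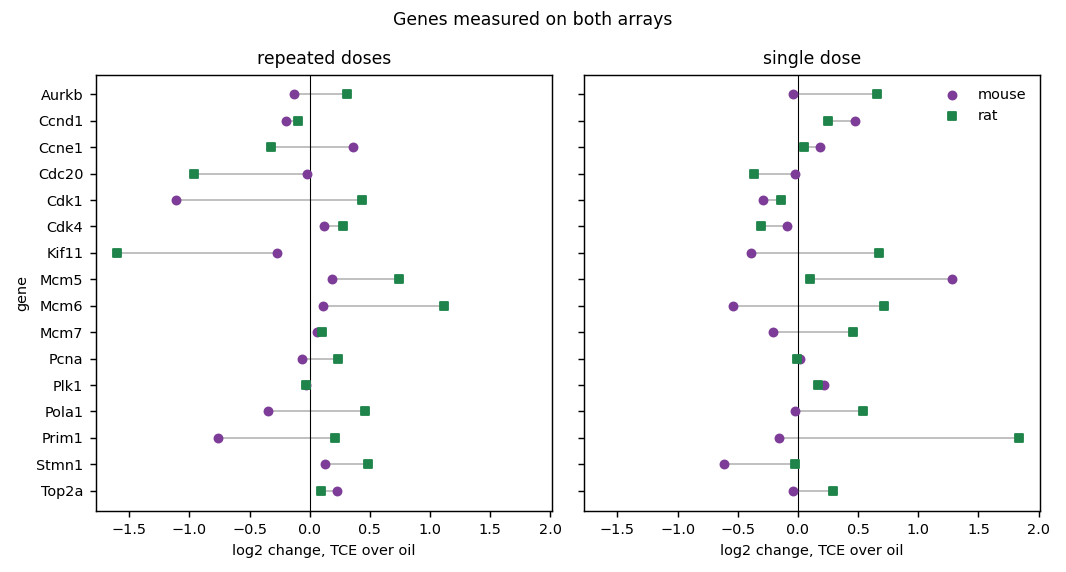
Log2 TCE change of the 16 genes measured on both arrays, in mouse (circles) and rat (squares), after repeated doses (left) and a single dose (right), with a line joining the pair. The widest gaps are those of Cdk1 (-1.11 in mouse and 0.44 in rat) and Kif11 (-0.27 and -1.61) after repeated doses and of Prim1 (-0.15 and 1.84) after a single dose; no difference passed the limma test.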

How the data were processed

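Poly-A RNA of 32 liver samples was measured on Affymetrix arrays, 1 type per species. Signals were made with MAS5, per the submitters' processing notes, of a version that the sources used here do not give. The values the authors deposited are linear ratios: in each species and schedule, 100% of probe sets without a missing value had an oil median of 1 within 0.002. The sources used here do not say how they were divided or scaled. Since ratios carry no signal level, no floor, filter, pseudocount or variance trend was used.

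The fits left out 66 mouse and 59 rat control probe sets. Symbols came from the platform annotation (1 symbol for 10833 mouse and 7006 rat probe sets, several for 396 and 308, none for 1193 and 1426), and none was named from several. Arrays of a group had at most 0.225% of their values in common.

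Group means of log2 ratios were estimated by lmFit and eBayes (limma 3.58.1, R 4.3.3) on the 16 arrays of each species, or on all 32 to compare species. P-values were adjusted by the Benjamini-Hochberg method across the array or the shared genes, with a threshold of 0.05. The fits were tried on simulated log2 ratios with independent normal noise and known changes. Those data held no shift common to an array, so they could not test how such shifts act on the calls. Control measures were compared by exact permutation tests. Tried besides were centring on array medians, quantile normalization, log2(value + 1), leaving out the noisiest 40% of probe sets, a fit on the compared groups alone, a replicate block, the Gapdh 3′ minus 5′ value as a covariate, leaving out arrays where it exceeded 1, averaging the probe sets of a gene, and dropping each array in turn.

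The members and the other lists were chosen with earlier results of these data known. Named were members past the threshold in any comparison, Mki67, Top2a, Pcna, Ccnd1 and Cdk1, the 3 largest rises and falls among members per TCE comparison, and up to 6 genes past the threshold per other list. Members outside this rule were named after their values were seen. They included, in mouse, Ccnf, Mcm3, Gmnn, Ccnb2, Cks2 and the second probe sets of Cdc25c, Tk1, Kif20a, Mcm5 and E2f1. In rat they included Mcm5, Mcm7, Mcm6 U17565_g_at and Ccnb1 rc_AA998164_s_at. Rat Mcm6 and Prim1 probe sets were also given in comparisons where the rule did not name them. The differences between schedules and between species were likewise named after their values were seen. Plots used Python 3.11.15 and matplotlib 3.10.9.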

Additional observations from a re-analysis of the deposited data

Results flagged for a closer look

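Among 144 groups of 4 arrays looked at (each named member probe set in each of its groups), 8 held an array whose log2 ratio stood apart from the other 3 by a larger part of the group's range than Dixon's 95% limit allows. Chance gives about 1 in 20 such groups. In mouse this was Cdk1 (100128_at) on repeated-dose oil array 1, at 3.566, with the others at 0.889 to 1.025. The other 7 were in rat. Among single-dose TCE arrays, Ccnb1 X64589_at read 0.367 on array 2, with the others at 1.123 to 1.367, and Mcm6 U17565_at read 0.224 on array 4, with the others at 1.507 to 2.069. Among repeated-dose TCE arrays, Ccnd1 rc_AA957218_at read 0.664 on array 4, with the others at 1.062 to 1.088, and Top2a D14045_s_at read 0.468 on array 3, with the others at 1.126 to 1.243. Prim1 U67994_at read 1.87 on repeated-dose TCE array 1, with the others at 1.655 to 1.673, and 0.012 on oil array 4 of the same schedule, with the others at 0.983 to 1.154. Cdc20 read 2.924 on repeated-dose oil array 1, with the others at 0.921 to 1.043. None of the 8 values belongs to a probe set that passed the test.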

How the results depend on the processing

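Counts of calls depended on the processing, and no called member turned its sign under any alternative. Values are in the order quantile normalization, log2(value + 1), noisiest 40% of probe sets left out, compared arrays alone, replicate block, Gapdh covariate and arrays of high Gapdh value left out, where given. Member calls in mouse after repeated doses, 2 in the report, were 0, 1, 0, 0, 0, 1 and 0, and 1 after centring on array medians. Both called probe sets lie among the noisiest 40% and were absent from the fit without those, so its 0 is no check of them. Mouse single-dose member calls were 1 with the noisiest probe sets left out (Kif20a) and 0 otherwise. Rat repeated-dose member calls, 1 in the report, were 0, 3, 4, 1, 0, 1 and 1, and 2 after centring. The single call on the compared arrays alone, with the covariate and without arrays of high Gapdh value was Mcm6 U17565_at in place of Ccnd1. Rat single-dose member calls, 2 in the report, were 0, 3, 2, 1, 0, 3 and 0, and 1 after centring. Members whose change differed between species after repeated doses numbered 1 with the noisiest probe sets left out and 1 with the covariate. Leaving out each array in turn gave member calls of 0 to 1 in mouse after repeated doses, 0 to 1 in mouse after a single dose, 0 to 1 and 0 to 2 in rat, and 0 to 1 in the repeated-dose species comparison.

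Over all probe sets, mouse repeated-dose calls (1331) were 7 with quantile normalization, 388 on the compared arrays, 264 with the block and 58 without arrays of high Gapdh value (687 to 1271 with each array left out). Mouse single-dose calls (1031) were 59 with quantile normalization, 190 with the block, 278 with the covariate and 18 without those arrays (519 to 1187). Rat repeated-dose calls (246) were 7, 392, 526, 106, 42, 72 and 133 (100 to 316), and rat single-dose calls (150) were 2, 234, 441, 69, 8, 256 and 29 (22 to 128). Calls of the mouse schedule difference (109) were 0 with quantile normalization, the block or those arrays left out, 306 with log2(value + 1), 672 without the noisiest and 183 with the covariate (21 to 118). Those of the rat schedule difference (0) were 6 with log2(value + 1), 5 without the noisiest, 1 with the block and 1 without those arrays (0 to 1). Species calls after repeated doses (321) were 6 with quantile normalization, 180 with the block and 160 without those arrays (254 to 361), and after a single dose (129) 7 with quantile normalization, 200 without the noisiest, 55 with the block and 36 without those arrays (81 to 181). Deviations of same-numbered TCE and oil arrays had correlations of -0.17 to 0.08, and of 0.05 to 0.08 in mouse after a single dose. There the same-numbered oil array was the closest match of TCE arrays 2, 3 and 4. It was also the closest for single-dose TCE array 4 and repeated-dose TCE array 2 in rat. Whether arrays of 1 number share a batch was not tested. With the block no member call of the report was kept. The cause of these shifts was not tested. By its design quantile normalization forces 1 distribution on all arrays. Leaving out the arrays of high Gapdh value leaves 1 TCE array per mouse schedule, assumed to vary like the other groups. The median member change moved to 0.11 and 0.15 in mouse after repeated doses with quantile normalization and centring, to -0.31 in mouse after a single dose and to 0.57 in rat after repeated doses without arrays of high Gapdh value. Over the named members and the settings other than leaving out 1 array, 350 results kept their direction and side of the threshold, 24 lost a call, 10 gained one and 35 changed sign without passing. In these data the number of arrays and the noise of the members limit what could be seen.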
